A study of Mus musculus with 8 samples.

Results

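The mitochondrial ribosomal protein genes were taken as the rows of the count table whose symbol is Mrpl or Mrps followed by a number, leaving out pseudogenes. The rule found 77 genes among 24421 symbols, 48 with an Mrpl symbol (large subunit) and 29 with an Mrps symbol (small subunit). They were measured by RNA sequencing of CD4+ T cells sorted from digested knees. The mice were male, 16 weeks old and had antigen-induced arthritis, in which an antigen given to an immunised animal inflames the joint. The 4 wild-type and 4 Slc7a5 knockout libraries all came from arthritic joints, so arthritis was shared by both genotypes, and the question was how the absence of this large neutral amino acid transporter alters T cell transcripts there. The promoter or Cre behind the knockout, the deleted part of the gene and the number of cells per library are not given in the sources used here. Nor do the labels tie a library to an animal of its own, so p-values measure the spread between libraries, which may be technical.

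Mitochondria keep their own ribosome, which translates the few membrane proteins of oxidative phosphorylation that the mitochondrial genome encodes. Its RNA comes from that genome, whereas all of its proteins are encoded in the nucleus, made in the cytosol and imported. The small subunit reads the messenger RNA and the large subunit joins the amino acids; some of their proteins have bacterial counterparts and others exist only in mitochondria. Activated T cells enlarge their mitochondria and depend on this translation for proliferation and cytokine production.

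Slc7a5 itself gave 385, 194, 410 and 0 counts across wild-type replicates 1 to 4 but none in any knockout library (0 counts), so wild-type replicate 4 was at 0 as well. Total counts ran from 18837650 to 36436923 per library, and genes with at least 1 count from 7957 to 10139 in wild type and from 5221 to 9358 in knockout. Knockout replicate 4 stood apart: it had the 5221 genes, and its rank correlations with the other libraries were 0.559 to 0.597. Cd4 was at 570, 373, 388 and 501 CPM in wild type, and 427, 344, 402 and 1.78 in knockout, where CPM is the count per 1e6 counts of the TMM-scaled library, while Cd3e was at 330 to 554 CPM in all 8 libraries. The 9 markers of cells with MHC class II and of myeloid cells summed to 1218 to 2998 CPM in wild type and to 8688, 9939, 1926 and 10891 CPM in knockout replicates 1 to 4. Most of each sum came from Cd74, H2-Ab1, H2-Aa and H2-Eb1. Cd74 alone was at 881 to 1969 CPM in wild type, and 4636, 5926, 1434 and 7352 CPM in knockout. The other genes of that list did not rise together. Adgre1 was at 0 in all libraries and Itgam in all knockout libraries. Csf1r was at 0 in wild type but gave 0, 44.3, 21.9 and 0.0522 CPM in knockout replicates 1 to 4. Lyz2 was at 22.03 to 25.7 CPM in wild type, and 0, 0, 25.5 and 0.366 CPM in knockout. Cd68 was at 19.8 to 47.9 CPM in wild type and 10.2 to 58.5 CPM in knockout. Of the B cell genes Ms4a1 was at 0 throughout, and Cd79b was at 8.12 CPM or less in wild type against 0, 35.2, 30.6 and 0 CPM in knockout. T cell markers summed to 7340 ± 1234 CPM in wild type against 6089 ± 908 CPM in knockout. Those of CD8 and natural killer cells, B cells, neutrophils, muscle and fibroblasts each summed to at most 123 CPM in any library. The 123 CPM was Cd8b1 in knockout replicate 4, the library with Cd4 at 1.78 CPM. Cd8b1 was at 0 to 20.3 CPM in the other libraries, and Cd8a was at 0 in knockout replicate 4. The part of these other cell markers in the results below was not tested.

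What the members share beyond their symbols was first looked for in their promoters, in RefSeq windows of GRCm38.p6 from 250 bases before to 50 bases after the transcript start. A window was found for 68 of the 77 members. CCGGAAG, the core bound by ETS factors such as GABPA, stood on either strand in 24 of 68 members (35.3%), against 9.12% of 27025 genes and 22.1% of the 6529 tested genes with a window. The core bound by NRF1, read as GCGCA, any base and GCGC, stood in 13 members (19.1%), against 4.78% of genes and 12.3% of tested genes. AAGATGGC, a core bound by YY1, stood in 12 (17.6%), against 2.88% and 5.74%. At least 1 of the 3 stood in 41 members (60.3%), against 15.2% of genes and 35.4% of tested genes, whereas TATAAA stood in 4 members (5.88%), against 14.2% and 6.57%. ETS cores stood in 13 of 42 large and 11 of 26 small subunit members. A match describes the letters only and shows no binding.

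The stretch before the start is shown for 4 members, 5′ to 3′ on the gene's strand and without annotated exons, with the match in capitals. Mrps22 (chr9:98601680-98601929, minus strand) had counts only in wild type. Mrpl34 (chr8:71464676-71464925, plus strand), chosen after its values were seen, was lower in each knockout library than in any wild-type one. Both carry the ETS core. Mrps16 and Mrpl50 were below wild type in the same way as Mrpl34. Mrps16 carries an ETS core, but Mrpl50 no ETS, NRF1 or YY1 core. A link between core and level was not tested. Mrpl17 (chr7:105811100-105811337, minus strand) carries an ETS and an NRF1 core, was detected in all libraries and was chosen for its sequence after values were seen. Mrpl12 (chr11:120484387-120484612, plus strand), whose protein belongs to the ribosomal stalk, carries the NRF1 core read on the other strand.
Mrps22: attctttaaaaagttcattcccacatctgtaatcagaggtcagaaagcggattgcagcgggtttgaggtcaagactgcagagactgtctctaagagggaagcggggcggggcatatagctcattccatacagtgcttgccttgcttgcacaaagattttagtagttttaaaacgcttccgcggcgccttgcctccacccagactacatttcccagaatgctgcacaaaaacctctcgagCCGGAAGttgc
Mrpl34: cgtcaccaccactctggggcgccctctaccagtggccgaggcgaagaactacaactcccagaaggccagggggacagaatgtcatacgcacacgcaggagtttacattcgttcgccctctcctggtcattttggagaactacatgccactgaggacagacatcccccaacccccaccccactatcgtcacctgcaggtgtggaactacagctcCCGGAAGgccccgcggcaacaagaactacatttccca
Mrpl17: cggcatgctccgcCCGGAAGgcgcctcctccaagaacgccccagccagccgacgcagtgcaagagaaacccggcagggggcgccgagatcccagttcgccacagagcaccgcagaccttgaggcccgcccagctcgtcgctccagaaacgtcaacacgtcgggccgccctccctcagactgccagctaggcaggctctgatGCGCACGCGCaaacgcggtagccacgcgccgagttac
Mrpl12: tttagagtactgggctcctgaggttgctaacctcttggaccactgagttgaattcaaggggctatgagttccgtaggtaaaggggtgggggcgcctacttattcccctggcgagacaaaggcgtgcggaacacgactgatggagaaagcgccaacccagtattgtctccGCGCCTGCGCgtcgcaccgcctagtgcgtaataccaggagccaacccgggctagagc

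Nearly all members were expressed, but not in all libraries. At least 1 count was found for 77, 76, 75 and 66 members in wild-type replicates 1 to 4 and for 73, 63, 74 and 44 in knockout replicates 1 to 4 (73.5 ± 5.07 against 63.5 ± 13.9, SD, n = 4 each). The groups overlapped, and without knockout replicate 4 the knockout mean was 70.0 ± 6.08 (n = 3). In percent, 100, 98.7, 97.4 and 85.7% of members were detected in wild type and 94.8, 81.8, 96.1 and 57.1% in knockout, against 61.9 to 78.9% and 40.6 to 72.8% of the 12849 genes with any count. In knockout replicate 4, 33 members were at 0 (19 large, 14 small), of which 21 were at 0 in that library alone. Beside all tested genes the share was close, since 31 of 75 tested members (41.3%) were at 0 there, against 43.7% of all tested genes. Among members at 50 to 100 CPM in the other libraries 41.7% were at 0 there, against 30.5% of all genes of that level, tested or not. At 10 to 50 CPM the shares were 48.7% and 59.7%.

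Detection was mostly all or none. Only 1 member in wild-type replicate 4, and 1, 4, 1 and 4 members in knockout replicates 1 to 4, had between 1 and 9 counts; other detected members had more. Counts in all 8 libraries were found for 33 members (23 large, 10 small), in 7 libraries for 30, in 6 for 10 and in 5 for 2. The remaining pair were Mrps22, in 3 libraries, and Mrps2, a small subunit protein with a bacterial counterpart, whose only counts were 18 in wild-type replicate 1.

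**Figure D1:**
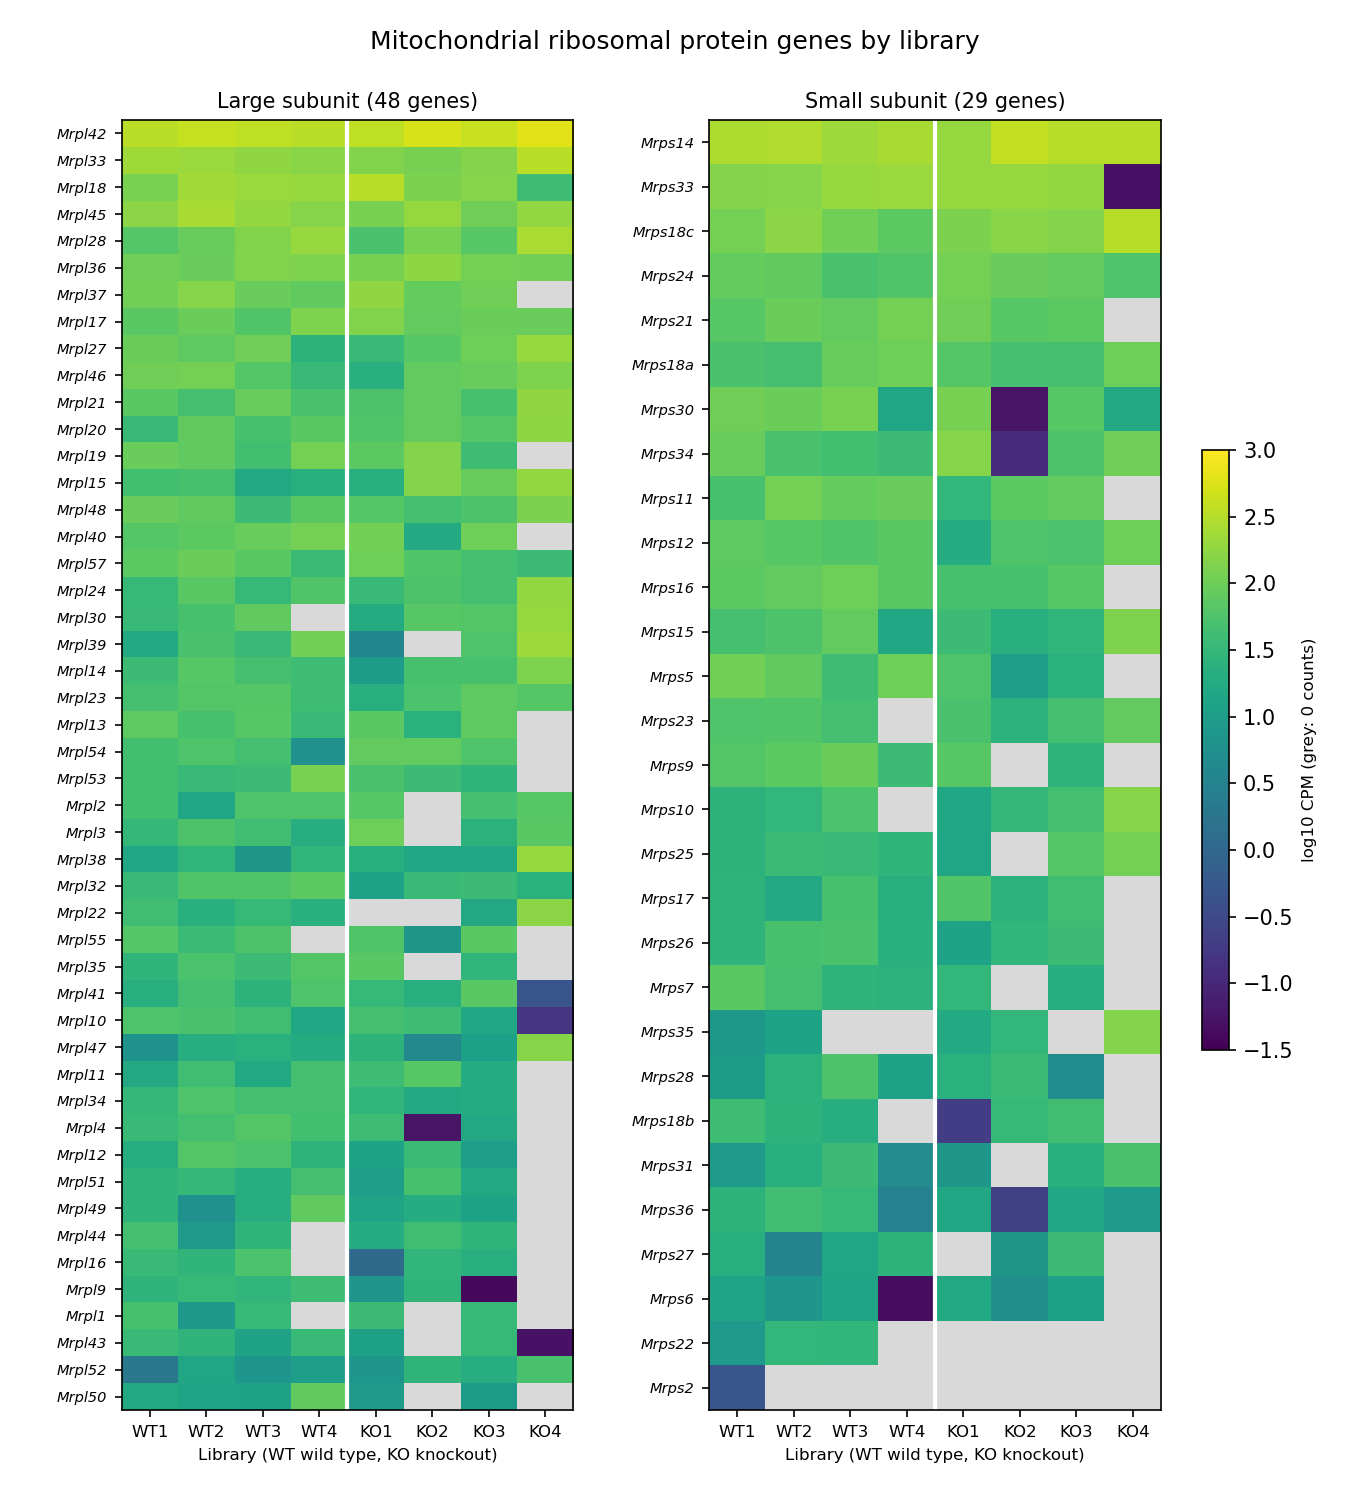
Level of each of the 77 members (rows) in each of the 8 libraries (columns), as log10 CPM by colour; grey cells have 0 counts, and the darkest colour marks a few counts. The grey cells gather in knockout replicate 4, where 33 members are at 0, while wild-type replicate 1 has none.

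With all libraries, the mean summed level of the members differed between genotypes by less than the spread between libraries, which did not hold without knockout replicate 4. All members together reached 4677, 5314, 4988 and 4576 CPM in wild-type replicates 1 to 4 and 4565, 4356, 4545 and 5991 CPM in knockout replicates 1 to 4 (4888 ± 333 against 4864 ± 757, SD, n = 4 each). Only knockout replicate 4 exceeded all wild-type libraries, and the other 3 knockout libraries lay below all wild-type libraries, with a mean of 4489 ± 115. In bulk RNA, fewer cells of a type and less RNA per cell cannot be told apart. The 33 members detected throughout summed to 2825 to 3407 CPM in wild type and to 2883, 3174, 2959 and 4724 CPM in knockout.

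Taken by subunit, the genotypes overlapped. Large subunit members summed to 2945, 3454, 3134 and 3171 CPM in wild type and to 2957, 2973, 2880 and 4254 CPM in knockout (3176 ± 210 against 3266 ± 660). Small subunit members summed to 1732, 1860, 1854 and 1404 CPM in wild type and to 1608, 1383, 1666 and 1737 CPM in knockout (1712 ± 214 against 1599 ± 153). The log2 ratio of the means, knockout over wild type, was 0.04 for the large and -0.10 for the small subunit, and without knockout replicate 4 it was -0.11 and -0.14, with means of 2936 ± 49.7 and 1552 ± 149 CPM. The ratio of large to small was 1.70, 1.86, 1.69 and 2.26 in wild type and 1.84, 2.15, 1.73 and 2.45 in knockout (1.88 ± 0.266 against 2.04 ± 0.325). These values overlapped, and in both genotypes the highest ratio belonged to replicate 4, the library of that genotype with the fewest members detected.

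**Figure D2:**
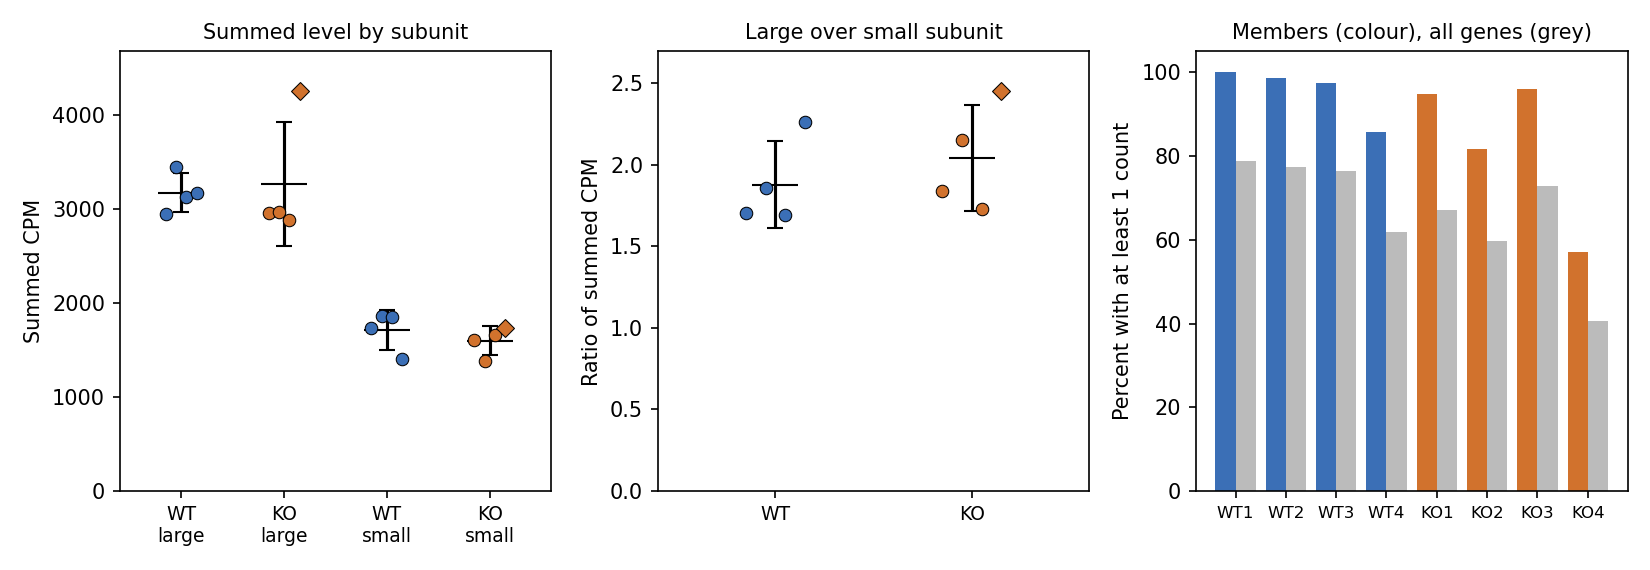
Left and middle, summed CPM of large and small subunit members and their ratio in each wild-type (WT) and knockout (KO) library (points; line, mean; bar, SD; n = 4 per genotype; the diamond is knockout replicate 4); right, percent of members (colour) and of all genes with any count (grey) detected per library. The diamond lies above the other knockout libraries for the large subunit, at 4254 against 2880 to 2973 CPM.

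Levels between genes were compared per kilobase of annotated exon. The highest were Mrps18c (143 CPM per kb), Mrpl18 (128), Mrpl42 (116), Mrpl36 (106) and Mrps21 (104). The medians were 19.6 CPM per kb for large and 13.3 for small subunit members. Before division by exon length the medians were alike, at 46.0 CPM for large and 45.7 CPM for small subunit members. Median exon length was 2255 bases for members and 4499.5 bases for tested genes, and median GC content 50.1% and 49.4%. Mrpl42, a mitochondria-specific large subunit protein, supplied 7.32 to 12.1% of the members' summed CPM and ranked first in each library.

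Knockout was then compared with wild type gene by gene with edgeR's quasi-likelihood test over 8489 genes, at an adjusted p under 0.05. Of the 77 members 75 passed the filter on low counts, and Mrps2 and Mrps22 did not. No tested member was called; across all genes the share called was 0%. At an unadjusted p under 0.05, 0 of 75 members passed in edgeR, against 3.84% of all tested genes. DESeq2 called 3.63% of the genes it tested and 1 member, Mrps22. Estimates were higher in knockout for 35 members and lower for 40, with a median log2 fold change of -0.16, beside -0.12 for all tested genes.

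By subunit, 23 large members were higher and 25 lower (median -0.03), and 12 small members were higher and 15 lower (median -0.19). The order of the subunits turned when members were placed by the ribosome's structure, a split made after the values were seen, with Mrps18a and Mrps30 in the large subunit and Mrps36 in neither. The medians were then -0.11 for the large (23 higher, 27 lower) and -0.09 for the small subunit (12 higher, 12 lower). For scale, each library's median log2 level of a subunit's members was taken relative to wild type. Between libraries of a genotype it had a pooled SD of 0.34 for the large and 0.74 for the small subunit by symbol. Members with a bacterial counterpart had a median of -0.03 (22 higher, 24 lower) and mitochondria-specific members -0.25 (13 higher, 16 lower); this split was made after the values were seen. Without knockout replicate 4, 27 members were higher and 49 lower of 76 tested, with medians of -0.19 for the large and -0.25 for the small subunit, beside -0.08 for all genes. Of the 75 members 24 had the opposite sign without that library, 16 of them higher only with it. An offset for GC content turned the median of the members to 0.29 (42 higher, 33 lower) and that of all genes to 0.16. Precision was low: the median standard error (SE) was 1.53 on the log2 scale, and it exceeded 1 for 54 members. For comparison, 80 tested cytosolic ribosomal protein genes had a median of -0.07, with 0 called by edgeR and 3 at an unadjusted p under 0.05.

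**Figure D3:**
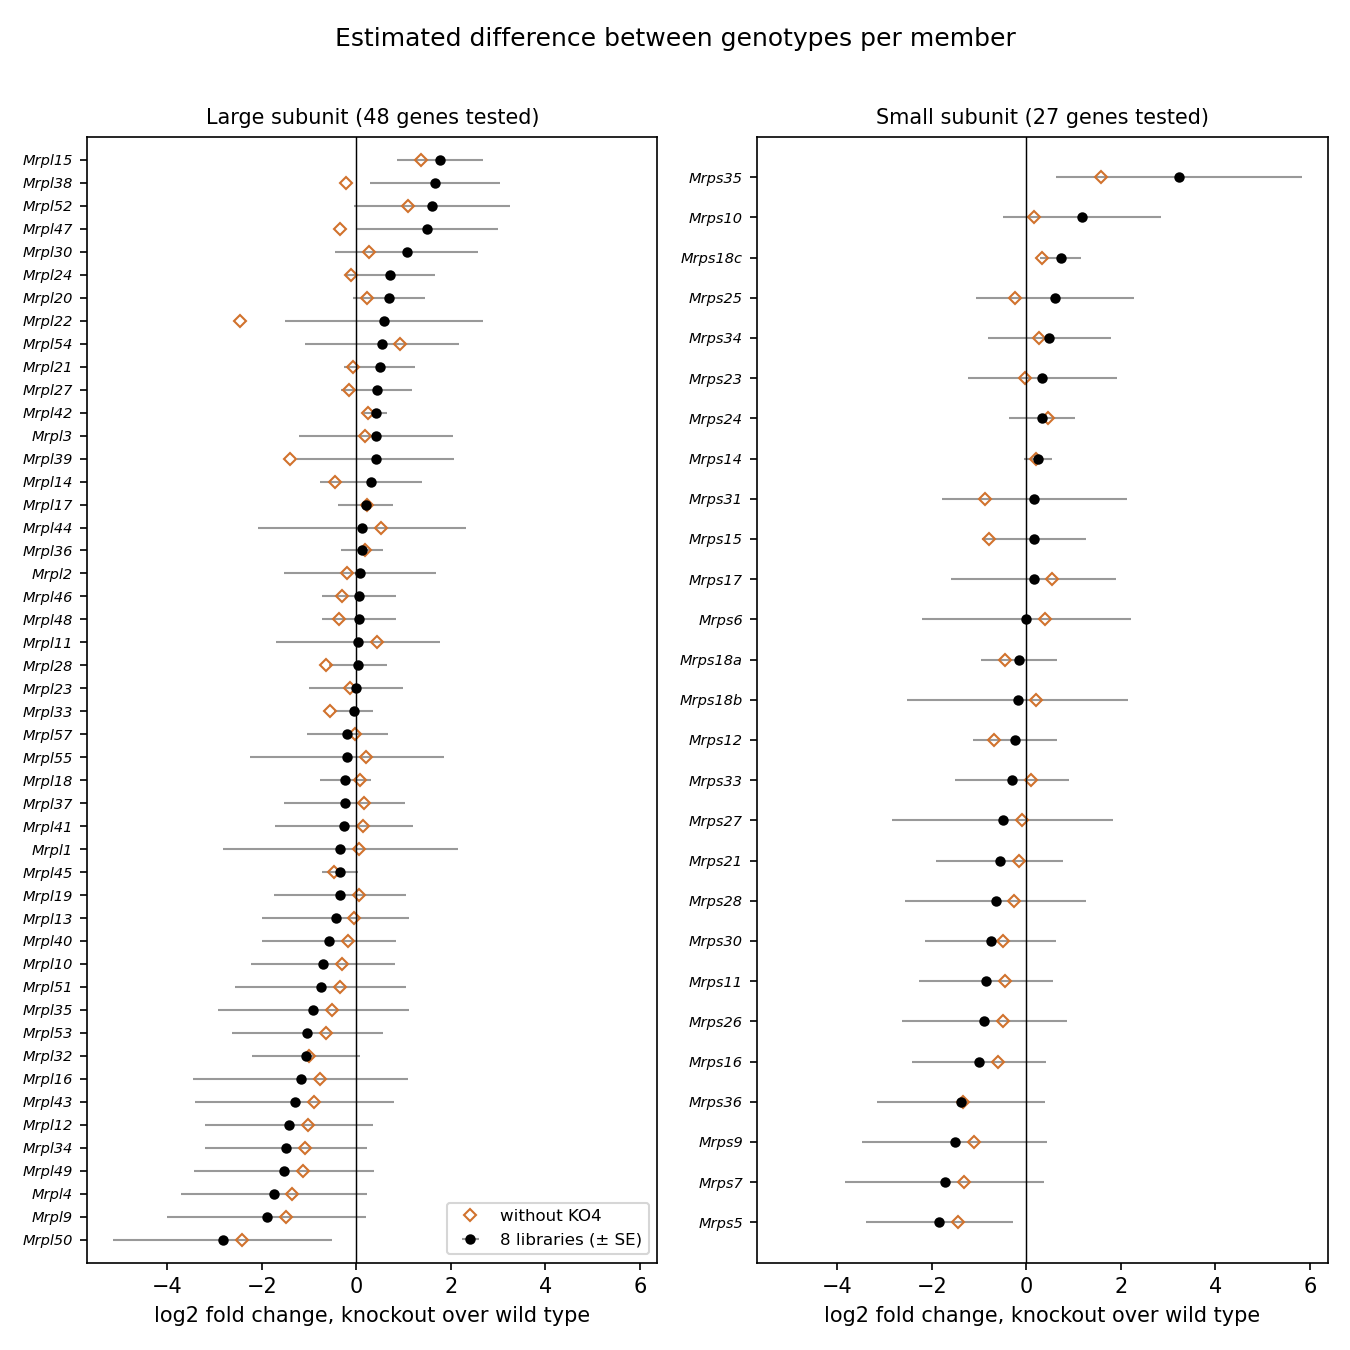
Fitted log2 fold change (knockout over wild type) of each of the 75 tested members (black points; bars, SE; open diamonds, without knockout replicate 4), by subunit. Estimates lie on both sides of 0, with a median by symbol of -0.03 for the large and -0.19 for the small subunit (-0.11 and -0.09 by structure), and most bars reach past 0.

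The 6 members with an SE under 0.5 were Mrps14, Mrpl42, Mrpl45, Mrpl36, Mrpl33 and Mrps18c, all detected in each library. Mrpl42 (chromosome 10, 95480805 to 95501949, minus strand) was at 348, 407, 365 and 345 CPM in wild type, and 364, 527, 426 and 637 CPM in knockout. Most knockout libraries lay above the wild-type ones, with an overlap at replicate 1, and the log2 fold change was 0.42 (SE 0.25; 95% interval -0.12 to 0.95), or 0.25 without knockout replicate 4. Mrps14, a protein of the small subunit's head, was at 277, 290, 216 and 261 CPM in wild type, and 196, 383, 328 and 331 CPM in knockout, which holds both the lowest and the highest values. Its log2 fold change was 0.25 (SE 0.29; 95% interval -0.39 to 0.89). Mrpl36, a very short protein and singled out after its values were seen, varied least, with 94.4 to 138 CPM in wild type, 109 to 173 CPM in knockout and a coefficient of variation of 20.02% over the 8 libraries, close to the 21.8% of Mrps14 and the 24.2% of Mrpl42.

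Among other abundant large subunit members, Mrpl45, which helps to tether the ribosome to the inner membrane, was at 165, 259, 190 and 152 CPM in wild type, and 118, 192, 105 and 188 CPM in knockout. These ranges overlapped, and the 95% interval of its log2 fold change was -1.17 to 0.49. Mrpl33 was at 226, 209, 181 and 158 CPM in wild type, and 138, 117, 146 and 342 CPM in knockout. All knockout libraries except replicate 4 were below wild type, and the log2 fold change of -0.06 became -0.55 without that library. Mrpl18, counterpart of a bacterial protein that binds the 5S RNA, was at 127, 239, 208 and 200 CPM in wild type, and 334, 131, 153 and 40.7 CPM in knockout. Its knockout values spanned both extremes, and its gene overlaps Tcp1, whose reads could not be told apart without a known strand setting. Mrpl28 was at 66.3 to 203 CPM in wild type and 51.6 to 266 CPM in knockout.

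Members of the stalk, the arm that recruits translation factors, were near or below the large subunit median of 19.6 CPM per kb. Mrpl10 was at 19.7, Mrpl12 at 18.1 and Mrpl11 at 9.68 CPM per kb. By library, Mrpl10, the base of the stalk, was at 57.5, 51.6, 42.1 and 15.6 CPM in wild type, and 47.6, 39.3, 15.4 and 0.157 CPM in knockout. Mrpl12 was at 19.9, 61.7, 53.7 and 26.6 CPM in wild type, and 13.1, 37.0, 10.3 and 0 CPM in knockout, and Mrpl11 at 16.5 to 48.0 and 0 to 67.7 CPM. Mrpl10 and Mrpl12 were lower on average in knockout (fitted log2 fold changes -0.70, SE 1.53, and -1.42, SE 1.78), with overlapping groups. Mrpl44, a protein with a ribonuclease III fold, was at 0 in replicate 4 of both genotypes, and Mrpl41 reached 22.2 to 57.5 CPM in wild type and 0.470 to 71.7 CPM in knockout. Mrpl58, a peptide release factor built into the large subunit, stands in the table under its older symbol Ict1, with 62.4 to 121 CPM in wild type and 120, 143, 133 and 0 CPM in knockout.

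The smallest p of any member belonged to Mrpl15, which has a bacterial counterpart in the large subunit. It was at 44.1, 49.5, 17.3 and 20.7 CPM in wild type, and 22.1, 147, 89.2 and 189 CPM in knockout. The knockout libraries other than replicate 1 lay above all wild-type libraries, with a log2 fold change of 1.77 (SE 0.91; edgeR unadjusted p = 0.0755, adjusted p = 0.9999). Mrpl32, whose maturation needs a protease of the inner membrane, was at 34.5, 59.2, 59.0 and 72.4 CPM in wild type, and 12.4, 34.6, 37.7 and 23.2 CPM in knockout, overlapping at the lowest wild-type value, with a log2 fold change of -1.06 (SE 1.15).

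In the small subunit, Mrps33 showed how far 1 library could move a value. It was at 147, 154, 203 and 208 CPM in wild type, and 197, 198 and 185 CPM in knockout replicates 1 to 3, but had a single count (0.0522 CPM) in replicate 4. Mrps21 was at 68.6 to 116 CPM in wild type, and 107, 66.6, 74.7 and 0 CPM in knockout. Mrps24 was at 50.9 to 85.7 CPM in wild type and 56.8 to 115 CPM in knockout. Mrps5, counterpart of a bacterial protein near the messenger RNA entry, was at 110, 79.6, 39.5 and 100 CPM in wild type, and 58.3, 10.1, 23.8 and 0 CPM in knockout, with only replicate 1 inside the wild-type range and a log2 fold change of -1.84 (SE 1.56). Mrps12, a protein of the decoding centre, was at 60.9 to 77.4 CPM in wild type, and 19.5, 57.6, 52.9 and 103 CPM in knockout.

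The 3 paralogs of Mrps18 differ in where they sit, since Mrps18b and Mrps18c belong to the small subunit and Mrps18a to the large one. Mrps18c was at 117, 162, 112 and 74.4 CPM in wild type, and 131, 161, 149 and 327 CPM in knockout (fitted log2 fold change 0.72, SE 0.44; 95% interval -0.24 to 1.69). Mrps18a was detected throughout, at 46.7 to 103 CPM in wild type and 46.7 to 100 CPM in knockout, whereas Mrps18b was at 0 in replicate 4 of both genotypes and at 0.211 CPM in knockout replicate 1. Mrps30, also a large subunit protein by structure, was at 106, 99.3, 123 and 14.8 CPM in wild type, and 118, 0.0556, 67.8 and 16.8 CPM in knockout. Mrps36, a component of the oxoglutarate dehydrogenase complex in spite of its symbol, was at 3.05 to 41.5 CPM in wild type and 0.222 to 15.4 CPM in knockout, and its 3 named pseudogenes make its counts uncertain. Mrps6 was at 13.5 CPM or less in wild type and at 17.0 CPM or less in knockout.

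In 3 tested members each knockout library was below all wild-type libraries, which is 4.00% of the 75, against 4.62% of all tested genes; none was above, against 1.52% of all tested genes. Mrps16, a small subunit protein that is mutated in human mitochondrial disease, was at 74.9, 82.9, 103 and 71.9 CPM in wild type, and 48.3, 48.7, 69.1 and 0 CPM in knockout (fitted log2 fold change -1.004, SE 1.42). Mrpl34, a very short large subunit protein named here after its values were seen, was at 30.9, 58.3, 44.7 and 47.6 CPM in wild type, and 28.5, 17.2, 19.0 and 0 CPM in knockout (-1.49, SE 1.71). Mrpl50, a mitochondria-specific large subunit protein, was at 17.2, 13.5, 13.0 and 79.1 CPM in wild type, and 8.26, 0, 9.04 and 0 CPM in knockout (-2.83, SE 2.31). Without knockout replicate 4 there were 6 such members (8%), against 6.28% of tested genes, the others being Mrpl22, Mrpl33 and Mrps12. Again none was above, against 4.09% of tested genes, so that 8% of members and 10.4% of tested genes did not overlap.

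Mrps22 was the only member with counts in at least 3 libraries of one genotype and none in the other. This mitochondria-specific small subunit protein, mutated in some human mitochondrial disease, gave 312, 828, 928 and 0 counts in wild type (8.67, 29.9, 28.6 and 0 CPM) but 0 counts in each knockout library. Against a floor of 3 counts over the pooled knockout libraries it was at least 481-fold lower in knockout, and the floor covers counting error only. DESeq2 gave an adjusted p of 0.00151, whereas edgeR without the filter gave 0.364 (unadjusted p = 0.0101) and edgeR without knockout replicate 4 gave an adjusted p of 0.532. Zeros of this kind were not rare: of 1928 genes within 1.5 times its wild-type mean, 81 (4.20%) were also at 0 in all knockout libraries.

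**Figure D4:**
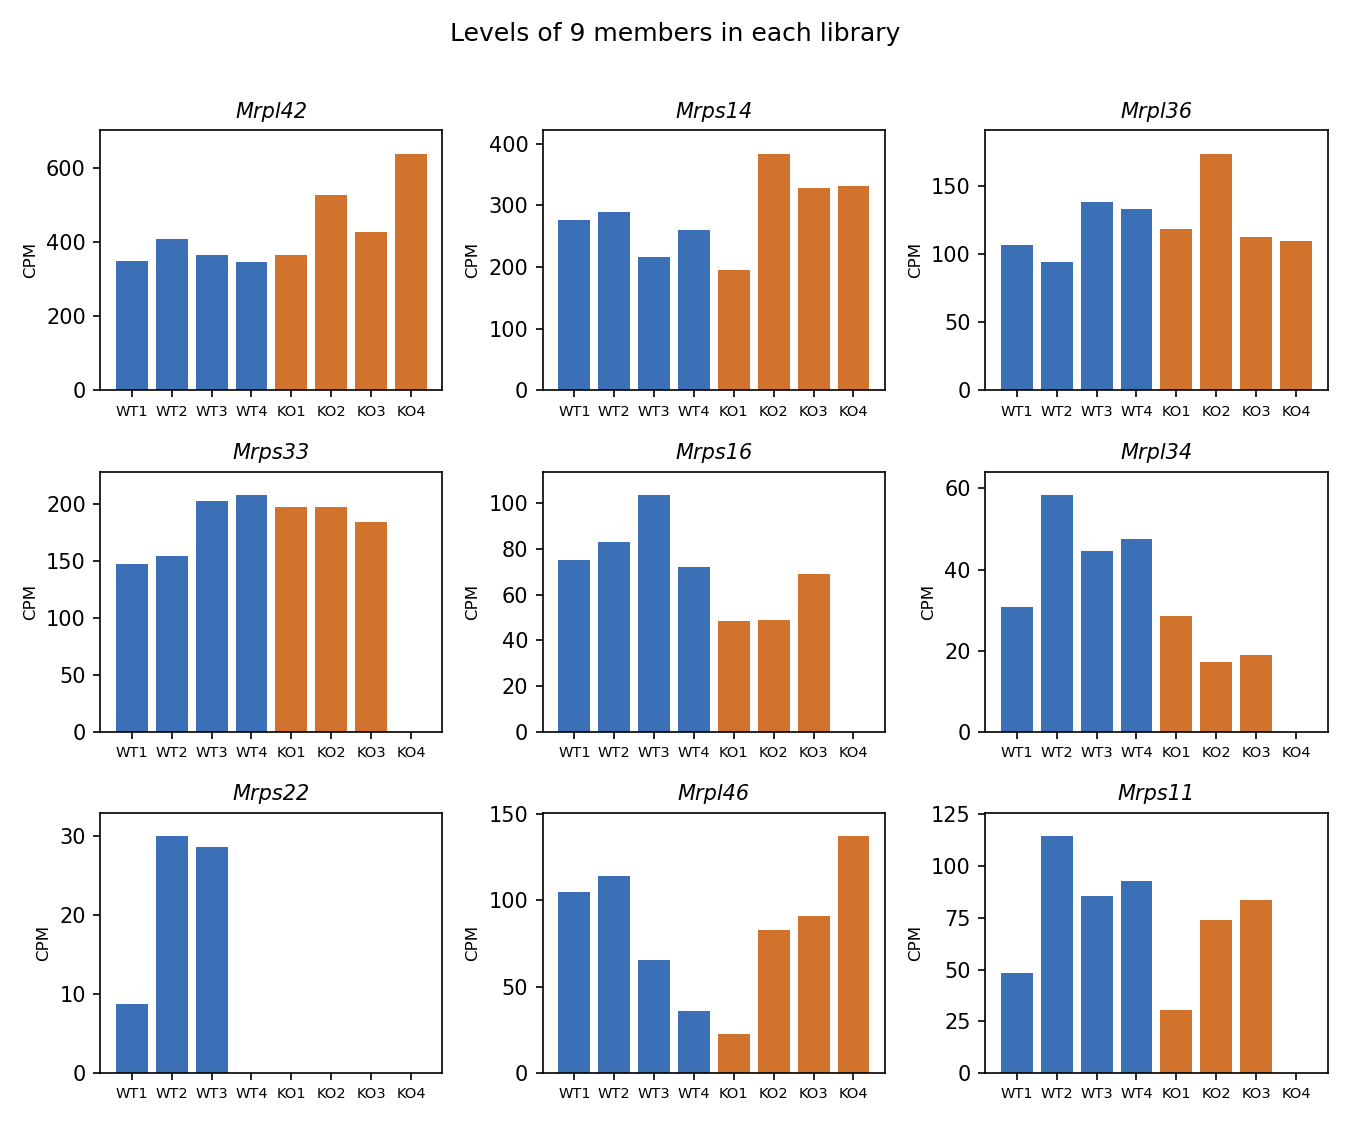
CPM of 9 members in each library (bars; WT, wild type; KO, knockout; numbers, replicates). Mrpl42, Mrps14 and Mrpl36 are present throughout, Mrps33, Mrps16, Mrpl34 and Mrps11 are at or near 0 only in KO4, and Mrps22 has counts in WT1 to WT3 alone.

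A neighbouring pair of members, chosen after their values were seen, allowed a look at a shared start region. Mrpl46 (minus strand, ending at 78783089) and Mrps11 (plus strand, from 78783131) on chromosome 7 point away from each other across 41 bases, of which 29 lie outside annotated exons (chr7:78783090-78783118).
Mrps11 and Mrpl46: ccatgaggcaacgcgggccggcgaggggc
Mrpl46 was at 105, 114, 65.4 and 35.9 CPM in wild type, and 22.6, 82.6, 91.1 and 137 CPM in knockout. Mrps11 was at 48.2, 114, 85.7 and 92.8 CPM in wild type, and 30.6, 74.1, 83.6 and 0 CPM in knockout. In knockout replicate 4 the pair parted, with the highest value of Mrpl46 beside 0 counts of Mrps11, and in knockout replicate 1 both had their lowest or next to lowest value.

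Knockout replicate 4 also held the highest values of many members it detected. Of its 44 detected members 26 (59.1%) had their highest CPM there, against 32.6% of 4776 tested genes detected there. The median CPM of detected members was 44.1 to 51.7 in wild type and 39.5, 45.3, 45.6 and 120 in knockout replicates 1 to 4, and that of detected tested genes 39.0 to 46.7 and 45.4, 50.5, 41.2 and 86.4. The median coefficient of variation of members between wild-type libraries was 40.1%, against 47.5% for 2380 tested genes of like level.

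Genes that work with the mitochondrial ribosome were read from lists, none of which held a gene called by edgeR. Of 5 subunits with other symbols 2 were higher and 3 lower (median log2 fold change -0.25). Dap3, a GTP-binding protein of the small subunit, was at 56.6, 78.6, 66.9 and 87.6 CPM in wild type, and 19.97, 38.4, 37.9 and 0 CPM in knockout, so that each knockout library was below all wild-type libraries (-1.59, SE 1.55). Aurkaip1, also of the small subunit, was at 116 to 200 and 93.4 to 218 CPM, and Gadd45gip1, of the large subunit, at 36.3 to 112 and 23.1 to 69.4 CPM, in wild type and knockout. Of 22 assembly factors 11 were tested, 3 higher and 8 lower (median -0.56). Dhx30, an RNA helicase of ribosome assembly, was at 15.6, 21.9, 45.5 and 22.5 CPM in wild type, and 1.05, 1.17, 0.239 and 0.366 CPM in knockout, a 37.3-fold difference of means without overlap. Its log2 fold change was -5.21 (SE 1.99), with an edgeR adjusted p of 0.942 (unadjusted p = 0.0227) and a DESeq2 adjusted p of 3.79e-08. Mterf3 and Mtg1, a factor binding mitochondrial nucleic acid and a GTPase of large subunit assembly, had estimates of -1.24 (SE 1.90) and -1.85 (SE 2.08).

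Of 15 mitochondrial translation factors 12 were tested, 3 higher and 9 lower (median -0.42). Gfm1, an elongation factor, was at 20.2, 31.2, 34.6 and 0 CPM in wild type, and 0, 0.0556, 4.78 and 0 CPM in knockout (-4.15, SE 2.90), overlapping through the zeros. Tufm, which delivers aminoacyl-tRNA, had an estimate of -1.09 (SE 1.69), and Slirp, which stabilises mitochondrial messenger RNA, one of 1.05 (SE 1.16). Of 14 genes of mitochondrial genome expression and its regulators 10 were tested, 8 higher and 2 lower (median 0.47). Of its genes that edgeR's filter left out, Esrra, an orphan nuclear receptor named here after its values were seen, was at 2.53, 2.67, 0.369 and 11.6 CPM in wild type against 0.0842, 0, 0 and 0 CPM in knockout, and was the single call of DESeq2 in this list (adjusted p = 0.0135), in the lower direction. The higher estimates of its leading tested genes rested on knockout replicate 4. Tfam, which packages mitochondrial DNA, was at 75.9, 41.5, 0.996 and 346 CPM in knockout against 9.84 to 53.3 CPM in wild type, and its estimate went from 1.69 to 0.11 without that library. Gabpa, an ETS factor, was at 42.7, 48.7, 51.8 and 377 CPM against 40.9 to 68.9 CPM, and its estimate went from 1.37 to -0.09; Ppargc1b, a coactivator, was at 142 CPM there against 9.997 CPM or less in the other knockout libraries, and went from 3.52 to 0.56.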

How the data were processed

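The deposited table holds raw counts, reads per gene symbol and not normalized by the authors. Tools listed without a role, per the submitters' processing notes, are HISAT2 2.1.0, featureCounts and edgeR 3.28.1, and the genome build is mm10. The annotation and the strand setting are not given in the sources used here. In all, 25 members overlap another RefSeq gene, 20 of them one in the table, and 4 have named pseudogenes, so their counts are uncertain.

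Genotypes were compared in R 4.3.3 with edgeR 4.0.16: filterByExpr (minimum count 10, minimum total 15), TMM scaling, the quasi-likelihood test with 1 genotype term and Benjamini-Hochberg adjustment over 8489 genes. Log2 fold changes are knockout over wild type, their 95% intervals use the t distribution with the fit's degrees of freedom, and CPM uses the TMM library size. Scripts were tested on simulated data. DESeq2 1.42.0, limma 3.58.1 (voom), other scalings and filters, an offset for GC content (known for 96.6% of tested genes), a replicate block and left-out libraries were alternatives. Exon lengths are unions of GENCODE M21 exons.

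The members and lists were chosen with earlier results of these data known. Named were the 5 most abundant members of each subunit, the 3 higher and 3 lower with the smallest p, 16 chosen for known roles, members at 0 in 1 genotype only, and up to 3 genes per list; others are marked as chosen after their values were seen.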

Additional observations from a re-analysis of the deposited data

Results flagged for a closer look

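In groups of 4 libraries, a value was singled out where its gap to the nearest other library relative to the group's range exceeded Dixon's critical value. The check covered all 77 members, the number of members detected, both subunit sums and their ratio. Of 162 groups 13 were singled out. Chance alone picks about 1 in 20 groups if values are normally distributed, which CPM with zeros need not be. The number singled out is therefore a description only.

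In wild type, replicate 4 held Mrpl50 at 79.1 CPM against 13.0 to 17.2 CPM in the other libraries, and Mrpl53 at 126 CPM against 34.1 to 44.2 CPM. Mrps2 was at 0.5 CPM in wild-type replicate 1 and at 0 in the others.

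In knockout, Mrpl36 was at 173 CPM in replicate 2 against 109 to 118 CPM. The other values came from knockout replicate 4, where the large subunit summed to 4254 CPM against 2880 to 2973 CPM in the rest. Mrpl33 was at 342 CPM there against 117 to 146 CPM, Mrps18c at 327 CPM against 131 to 161 CPM, and Mrpl38 at 204 CPM against 15.2 to 21.6 CPM. Mrpl24 was at 184 CPM against 33.9 to 56.3 CPM, Mrpl22 at 165 CPM against 0 to 16.6 CPM, Mrpl47 at 152 CPM against 4.11 to 25.7 CPM, and Mrps15 at 136 CPM against 20.8 to 37.8 CPM. Mrps33 was low there, at 0.0522 CPM against 185 to 198 CPM.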

How the results depend on the processing

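With edgeR, no member and no gene was called under no filter, a stricter filter, other scalings (medians of the members -0.11 to -0.23, of all genes -0.09 to -0.22), the replicate block, the GC offset or left-out libraries. DESeq2 called 387 genes and 1 member, Mrps22, and limma voom 9 genes and no member. Members at an unadjusted p under 0.05 numbered 1 without the filter, 2 with DESeq2, 6 with limma voom, 1 with the GC offset, 2 without the 2 libraries with the fewest genes, 2 without the 3 libraries with the fewest members (added after the data were seen), and 0 to 2 with each library left out in turn. Limma voom, in which zeros become low log values, gave medians of -1.61 for the members (56 lower), -1.16 for the large and -1.98 for the small subunit, beside -1.28 for all genes. The GC offset gave 0.29 for the members, 0.31 for the large subunit and 0.16 for all genes, with 33 members lower against 40 without it; the cause was not tested.

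The labels give same-numbered libraries only a shared number. Their deviations from the group means correlated at -0.02 to 0.05, against -0.06 to 0.05 for other pairs of a wild-type and a knockout library. Whether same-numbered libraries shared a batch was not tested. The replicate block gave a median of -0.49 for the large subunit and -0.57 for the members (55 lower), beside -0.68 for all genes, with 0 calls. Over the 38 named genes that edgeR tested, which leaves out Mrps22, 61 of 754 alternative values moved by more than 1 SE, 19 genes had a change of sign somewhere, and Dhx30 passed in DESeq2. Placing members by structure, added after the data were seen, gave medians of -0.11 (large) and -0.09 (small). The 3 libraries with the fewest members detected (knockout replicates 4 and 2 and wild-type replicate 4) also had the lowest total counts. In knockout replicate 4, where 1 count is 0.0522 CPM, 41.7% of members at 50 to 100 CPM in the other libraries were at 0. Wild-type replicate 4 had 21873678 counts and 66 members detected, against 22878362 and 73 in knockout replicate 1. The part of depth in the loss of transcripts was not tested. A difference of the size of the median SE, 1.53, was not detectable for most members.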
